A study of Homo sapiens with 18 samples.

Results

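The transcriptional coactivators YAP1 and WWTR1 (the gene of TAZ), their DNA-binding partners TEAD1 and TEAD4, and 6 genes that they are known to activate (CCN1, CCN2, ANKRD1, AMOTL2, LATS2 and F3) were followed through 18 RNA-seq libraries of A375, a human melanoma line with an activated BRAF kinase. The 10 genes were chosen by symbol with earlier results of these data known, so their counts beside all genes are no test of the set. They make up 10 of the 60595 genes listed in each of 4 tables. The tables hold FPKM, a level per transcript length and library size. All 10 were listed, and all 10 passed the filter on low values (at least 1 FPKM in at least 2 libraries of a comparison) in every comparison. The series was set up to find transcripts that depend on LSD1 and FOSL1. The libraries form 9 groups of 2, named by the letters P and R, which are taken here to mean parental cells and cells resistant to BRAF and MEK inhibitors, since the labels do not spell them out. P and R cells labelled wild type received vehicle (P_DMSO, R_DMSO) or 250 nM of the BRAF inhibitor dabrafenib with 10 nM of the MEK inhibitor trametinib (P_DT, R_DT). Other cells of both lines carried hairpins, either a control (P_shCtrl and R_shCtrl) or one that targets KDM1A, the gene of the histone demethylase LSD1 (P_shLSD1 and R_shLSD1). R cells also carried a hairpin against FOSL1, a subunit of the transcription factor AP-1 (R_shFosL1), in a table with no control of its own. The hairpins were delivered by lentivirus, and the labels give no drug for the hairpin groups, no treatment time, no hairpin sequence and no number of clones behind the R line. Nothing in them says whether the 2 replicates of a group came from different cultures, and the p-values measure the spread between these libraries, which may be technical.

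YAP1 and TAZ do not bind DNA themselves. When the kinase cascade of the Hippo pathway (MST kinases with SAV1, then LATS1 and LATS2 with MOB1) is active, it phosphorylates both and keeps them out of the nucleus, and when it is not, they enter and activate genes through TEAD factors. Cell shape, matrix stiffness and actin tension feed into the same switch, which acts on the proteins and need not show in their mRNA. CCN1 and CCN2 encode secreted matricellular proteins, ANKRD1 a muscle-type ankyrin repeat protein of the nucleus and sarcomere, and F3 tissue factor, the receptor that starts blood clotting. AMOTL2, an angiomotin that holds YAP1 at junctions, and LATS2 are targets that also restrain the pathway. In melanoma, YAP and TEAD activity is known to accompany dedifferentiated states that tolerate inhibitors of BRAF and MEK, and TEAD and AP-1 sites often lie close together in enhancers.

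The upstream sequences of the 3 targets with the largest ranges over the groups or the most motif matches are shown, because they hold the letters by which TEAD and AP-1 are known to bind. Each is the 250 bases before the annotated start in RefSeq (GRCh38.p14), on the minus strand of chr6:131951373-131951622 for CCN2, chr10:90921088-90921337 for ANKRD1 and chr1:94541760-94542009 for F3, written 5′ to 3′ with motif matches in capitals.
CCN2: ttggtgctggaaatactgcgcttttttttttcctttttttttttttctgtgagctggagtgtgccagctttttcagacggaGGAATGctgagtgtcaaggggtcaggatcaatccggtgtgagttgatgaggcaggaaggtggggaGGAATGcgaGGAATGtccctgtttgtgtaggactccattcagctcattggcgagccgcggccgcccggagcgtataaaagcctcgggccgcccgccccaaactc
ANKRD1: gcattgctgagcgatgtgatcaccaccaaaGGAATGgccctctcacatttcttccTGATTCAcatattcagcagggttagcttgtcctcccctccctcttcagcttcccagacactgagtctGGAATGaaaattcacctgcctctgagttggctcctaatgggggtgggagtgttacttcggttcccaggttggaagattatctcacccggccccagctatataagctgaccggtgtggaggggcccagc
F3: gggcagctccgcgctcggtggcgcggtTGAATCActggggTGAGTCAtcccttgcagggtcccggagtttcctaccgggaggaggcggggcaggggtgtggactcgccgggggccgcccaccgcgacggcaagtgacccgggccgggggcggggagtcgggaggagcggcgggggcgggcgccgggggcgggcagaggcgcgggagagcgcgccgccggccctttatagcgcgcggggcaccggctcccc
The capitals mark GGAATG, the core of the TEAD site, searched on both strands, and TGANTCA, the AP-1 site, which is its own reverse complement apart from its middle base. CCN2 held GGAATG 3 times, the last 2 of them 3 bases apart, and no TGANTCA. ANKRD1 held GGAATG 2 times and TGATTCA once, and F3 held TGAATCA and TGAGTCA and no GGAATG. Among all 35116 promoters of that length, 11.9% held GGAATG and 6.57% held TGANTCA. The 3 promoters shown were chosen partly for their matches, so these shares are no test of them. RefSeq promoters were matched for 7 of the 10 genes (9 starts), and none for CCN1, TEAD1 or TEAD4. YAP1 and 1 of 2 AMOTL2 starts held a single GGAATG, and LATS2 and both WWTR1 starts held neither motif. A match describes these letters in this window and shows no binding.

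**Figure D1:**
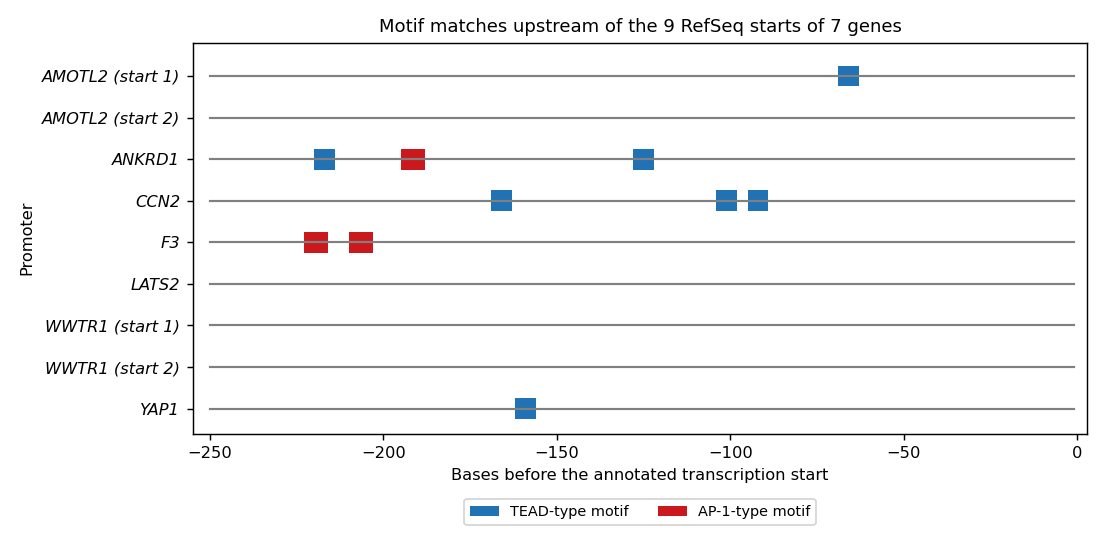
Positions of motif matches in the 250 bases upstream of the 9 annotated starts of 7 genes. The x axis gives bases before the start, and each bar is a match to the TEAD-type motif GGAATG (blue) or the AP-1-type motif TGANTCA (red); CCN2 has 3 blue bars, ANKRD1 has 2 blue bars and a red bar, and F3 has 2 red bars.

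On GRCh38, CCN1 lies on chromosome 1 from 85580761 to 85583962 and F3 on chromosome 1 from 94529225 to 94541800. CCN2 lies on chromosome 6 from 131948176 to 131951373 and ANKRD1 on chromosome 10 from 90912096 to 90921276. YAP1 lies on chromosome 11 from 102110461 to 102233423, WWTR1 on chromosome 3 from 149517235 to 149736714, and AMOTL2 on chromosome 3 from 134355874 to 134375479. TEAD1 lies on chromosome 11 from 12674591 to 12944483, TEAD4 on chromosome 12 from 2959330 to 3040673, and LATS2 on chromosome 13 from 20973032 to 21061547. Each is annotated as protein-coding, and FPKM sums reads over its exons. Exons of YAP1 share 628 bases with the antisense gene AP000942.2, and exons of WWTR1 share 795 bases with WWTR1-AS1. The strand setting of the authors' counting is not given in the sources used here, so reads in those bases cannot be assigned to either gene with certainty. CCN2 shares 195 exon bases with the antisense gene AL133346.1, which averaged 0.386 FPKM over the 18 libraries.

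The genes aimed at by the hairpins were low in their own hairpin groups. KDM1A stood at 78.1 and 72.4 FPKM in P_shCtrl and 9.54 and 6.73 in P_shLSD1, and at 73.3 and 76.5 in R_shCtrl and 10.1 and 11.1 in R_shLSD1. FOSL1 stood at 109 and 104 FPKM in R_shCtrl and 36.2 and 38.3 in R_shFosL1. DUSP6, an ERK phosphatase transcribed when ERK is active, fell under both drugs from 56.5 and 63.0 to 6.21 and 5.43 FPKM in P and from 32.9 and 35.6 to 8.47 and 7.13 in R (limma adjusted p = 0.00014 and 0.0018). The 2 P_DMSO libraries stood further apart than other pairs, with an SD of 0.71 for the log2 difference between replicates against 0.356 to 0.476 in the other groups, and FOSL1 differed between them (77.9 and 214 FPKM). SOX10, a transcription factor of the melanocyte lineage, separated the lines. It stood at 143 and 180.3 FPKM in P_DMSO and was listed at 0 in R_DMSO and in all 3 R hairpin groups. MITF, another of the 8 melanocytic markers, went the other way, at 4.82 to 7.51 FPKM in P_DMSO and 23.8 to 25.5 in R_DMSO. In the control hairpin groups MITF stood at 9.49 to 12.3 FPKM in P_shCtrl and 23.0 to 26.3 in R_shCtrl. The 8 melanocytic markers summed to 106 to 452 FPKM in the 8 P libraries and to 17.9 to 58.3 in the 10 R libraries. The 8 fibroblast markers summed to 4.05 to 4.29 FPKM in P_DMSO, 15.5 to 16.7 in P_DT, 26.1 to 29.4 in R_DMSO and 57.5 to 59.1 in R_DT, with COL1A2 listed at 0 in 8 of 9 groups. Their sums in the hairpin groups were 8.81 to 10.3 FPKM in P_shCtrl, 50.2 to 59.4 in P_shLSD1, 23.4 to 38.4 in R_shCtrl, 32.0 to 40.2 in R_shLSD1 and 29.2 to 29.3 in R_shFosL1. The 6 keratinocyte markers summed to 21.2 to 139 FPKM over the 18 libraries, the 6 leukocyte markers to 0.194 to 10.6 and the 6 endothelial markers to 0.413 to 8.73. The part of these markers in the results below was not tested, and in bulk RNA fewer cells of a type and less RNA per cell cannot be told apart.

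The coactivators themselves differed in how much they varied. YAP1 moved little: its group means ran from 36.7 ± 7.89 FPKM (SD, n = 2) in P_DMSO to 49.3 ± 0.938 in R_DMSO, a ratio of 1.34, and 7 of the 8 neighbouring pairs in that order overlapped. WWTR1 instead split by line, with means of 140 to 293 FPKM in the 4 P groups and 33.6 to 45.2 in the 5 R groups, and no P library overlapped an R library. Within a library, the ratio of WWTR1 to YAP1 FPKM was 4.36 and 4.25 in P_DMSO, 7.02 and 7.68 in P_DT, 0.889 and 0.763 in R_DMSO and 1.299 and 0.981 in R_DT. In the hairpin tables it was 3.96 and 3.43 in P_shCtrl, 2.99 and 3.10 in P_shLSD1, 0.952 and 0.857 in R_shCtrl, 0.819 and 0.677 in R_shLSD1 and 0.786 and 0.706 in R_shFosL1. TAZ mRNA per length was thus 2.99 to 7.68 times YAP1 mRNA in the 8 P libraries and 0.677 to 1.299 times in the 10 R libraries. WWTR1-AS1 split the same way, at 17.1 and 40.4 FPKM in P_DMSO, 60.2 and 57.7 in P_DT, 10.4 and 4.96 in R_DMSO and 10.2 and 9.47 in R_DT, and the part of shared reads in this was not tested. AP000942.2, antisense to YAP1, ran from 16.8 to 38.2 FPKM over the 18 libraries.

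The TEAD factors were present throughout at moderate levels. TEAD1 means ran from 17.9 ± 8.46 FPKM in P_shCtrl to 40.6 ± 3.21 in R_shCtrl, a ratio of 2.27, and the 4 highest groups were R groups (R_shCtrl, R_DT, R_shLSD1, R_shFosL1). TEAD4 means ran from 16.5 ± 8.11 FPKM in P_DMSO to 43.3 ± 0.605 in P_shCtrl, a ratio of 2.63, so its extremes were 2 untreated or control groups of the same line in different tables. Because the tables were normalised separately, differences between tables are given as levels only. LATS2 varied least among the targets, from 5.45 ± 0.769 FPKM in R_DMSO to 9.11 ± 1.49 in R_DT, a ratio of 1.67, with 7 of the 8 neighbouring pairs overlapping.

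**Figure D2:**
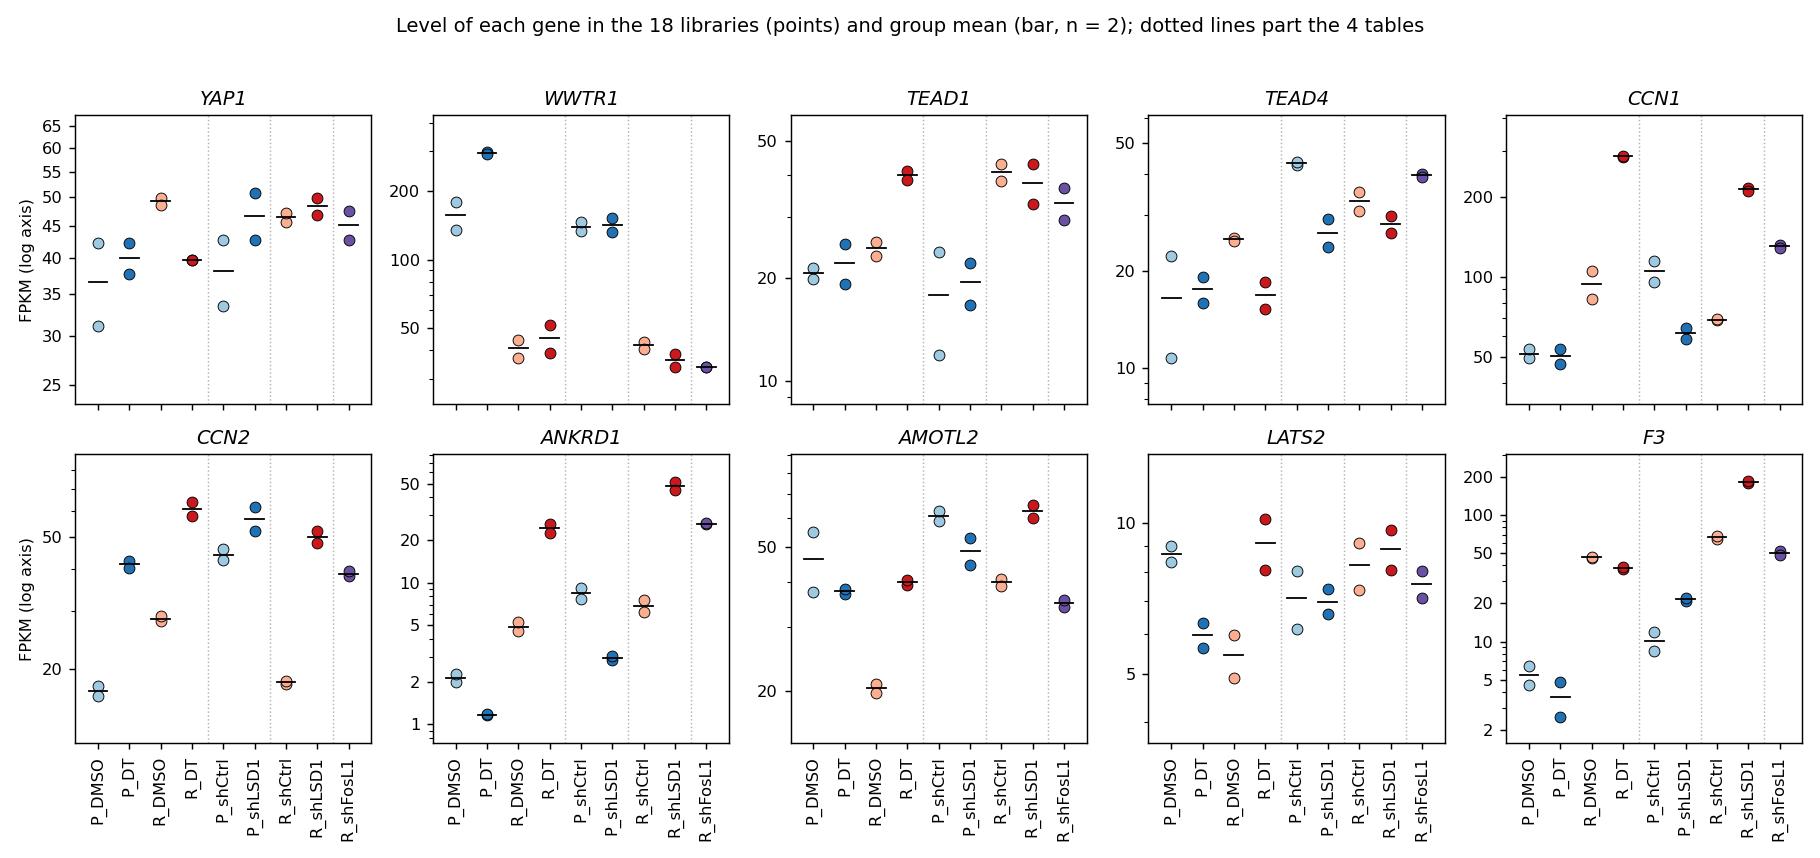
FPKM (log axis) of the 10 genes in the 18 libraries, with points for libraries and bars for the mean of the 2 libraries of a group; dotted lines part the 4 tables. WWTR1 lies between 132 and 297 FPKM in P libraries and between 33.6 and 51.6 in R libraries, while ANKRD1 and F3 span ratios of 41.2 and 49.6 between their highest and lowest group means.

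Among the targets, ANKRD1 and F3 had the widest ranges. ANKRD1 ran from a mean of 1.17 ± 0.0184 FPKM (SD, n = 2) in P_DT to 48.1 ± 4.30 in R_shLSD1, and no 2 neighbours in its order of 9 groups overlapped. F3 ran from 3.68 ± 1.61 FPKM in P_DT to 182 ± 6.02 in R_shLSD1, and every R library exceeded every P library. CCN1 ran from 50.3 ± 4.39 FPKM in P_DT to 286 ± 1.55 in R_DT, and CCN2 from 17.1 ± 0.795 in P_DMSO to 61.0 ± 4.27 in R_DT. AMOTL2 ran from 20.3 ± 0.763 FPKM in R_DMSO to 62.7 ± 3.72 in R_shLSD1. The targets did not rank the groups alike: P_DT was the lowest group for CCN1, ANKRD1 and F3 but the fifth of 9 for CCN2. Control groups of the same line also differed between tables, with CCN2 at 17.7 and 16.6 FPKM in P_DMSO and 46.0 and 42.5 in P_shCtrl, and ANKRD1 at 1.97 and 2.28 and 9.10 and 7.68. ANKRD1 rests on few fragments where it is low, an estimated 37 in P_DMSO replicate 1 against 748 in R_shLSD1 replicate 1.

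The first comparison asked how dabrafenib with trametinib moved the genes in the P line. Of the 10 genes, WWTR1 and CCN2 rose, none fell and 8 did not pass limma's test (adjusted p below 0.05 over 17190 genes), against a background of 12.8% of all genes higher, 9.67% lower and 22.5% called in either direction. CCN2 stood at 17.7 and 16.6 FPKM in P_DMSO and 42.4 and 40.4 in P_DT. Both treated libraries lay above both vehicle libraries, and the change on the scale of log2(FPKM + 1) was 1.23 ± 0.12, adjusted p = 0.0014. WWTR1 stood at 135 and 179.5 FPKM in P_DMSO and 297 and 289.7 in P_DT. Its libraries did not overlap either (0.91 ± 0.20, adjusted p = 0.021), but the call was lost without P_DT replicate 1 (adjusted p = 0.11), without P_DT replicate 2 (0.10) and in a fit of the 4 P libraries alone (0.067). The other targets did not follow CCN2. CCN1 stood at 49.5 and 53.3 FPKM in P_DMSO and 47.2 and 53.4 in P_DT, which overlap, and its 95% interval was -0.40 to 0.33. ANKRD1 stood at 1.97 and 2.28 and 1.15 and 1.18 FPKM, lower in both treated libraries without passing (-0.53 ± 0.18, adjusted p = 0.082). It passed with quantile normalisation (-0.74, adjusted p = 0.029) and with a pseudocount of 0.1 (-0.81, 0.0478). LATS2 went from 8.35 and 9.02 to 5.62 and 6.32 FPKM (-0.47 ± 0.19, adjusted p = 0.12; with quantile normalisation -0.64, adjusted p = 0.0462). F3 (-0.50), AMOTL2 (-0.26), YAP1 (0.14), TEAD1 (0.09) and TEAD4 (0.16) did not pass. The 2 P_DMSO libraries stood apart for some of these: without P_DMSO replicate 1 AMOTL2 passed as lower (-0.54, adjusted p = 0.025), and without P_DMSO replicate 2 TEAD4 passed as higher (0.65, 0.036). The median change of the 10 genes was 0.03, beside 0.11 for all genes tested. Marker sums moved as well, the melanocytic being 430.4 to 452 FPKM in P_DT against 157 to 201 in P_DMSO and the endothelial 0.477 to 0.775 against 2.104 to 2.50. Mitochondrial transcripts made up 9.62% and 10.5% of summed FPKM in P_DT against 7.27% and 7.86% in P_DMSO. The part of these in the results was not tested.

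In the R line the same drugs raised 4 of the 10 genes, all of them targets, and lowered none, against a background of 3.65% of all genes higher, 2.83% lower and 6.48% called in either direction. CCN1 stood at 105 and 82.5 FPKM in R_DMSO and 284 and 287 in R_DT. ANKRD1 stood at 4.52 and 5.27 FPKM in R_DMSO and 25.8 and 22.6 in R_DT. For both genes the treated libraries lay far above the vehicle libraries, by 1.60 ± 0.15, adjusted p = 0.0041 for CCN1 and by 2.09 ± 0.18, adjusted p = 0.0029 for ANKRD1. CCN2 went from 27.9 and 28.8 FPKM to 64.0 and 57.9 (1.08 ± 0.12, adjusted p = 0.0078). AMOTL2, the angiomotin, went from 20.9 and 19.8 FPKM to 39.3 and 40.6 (0.94 ± 0.19, adjusted p = 0.036), again with no overlap. TEAD1 stood at 23.2 and 25.5 FPKM in R_DMSO and 41.1 and 38.5 in R_DT. It did not pass over the 8 libraries (0.69 ± 0.16, adjusted p = 0.058) but did in the 4 R libraries alone (adjusted p = 0.021). LATS2 likewise had separate libraries, 5.99 and 4.90 and 10.2 and 8.06 FPKM, without passing (0.65 ± 0.19, adjusted p = 0.094). WWTR1 (0.14, interval -0.33 to 0.62), YAP1 (-0.31), TEAD4 (-0.55) and F3 (-0.28) did not pass. The median change of the 10 genes was 0.67, beside -0.03 for all genes tested. These calls depended on which libraries were fitted. The count over all genes was 1114 over the 8 libraries and 2506 in the 4 R libraries alone. It fell below 1114 when any of those 4 was left out, which leaves a group with a single library. Without R_DMSO replicate 1 or replicate 2, CCN1 and ANKRD1 passed while CCN2 (adjusted p = 0.071 and 0.079) and AMOTL2 (0.15 and 0.19) did not. Without R_DT replicate 2 only ANKRD1 passed, with CCN1 at adjusted p = 0.062, CCN2 at 0.077 and AMOTL2 at 0.20. Without R_DT replicate 1 limma called 0 of the 10, with 5 at an unadjusted p under 0.05, and the adjusted p was 0.057 for ANKRD1, 0.068 for CCN1, 0.099 for CCN2 and 0.18 for AMOTL2. AMOTL2 also missed the threshold when every gene above 0 FPKM was tested (adjusted p = 0.067). The endothelial marker sum was higher in R_DT, at 8.68 to 8.73 FPKM against 0.413 to 0.913 in R_DMSO, with CDH5 at 0 and 0.473 FPKM in R_DMSO and 6.17 and 6.83 in R_DT. The fibroblast sum was higher too, as given above, and so was the melanocytic sum, at 35.9 to 58.3 against 24.9 to 27.0 FPKM. Their part in these values was not tested.

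The drug effects in R and in P were then compared directly. The effect was more positive in R for 4 genes and more negative for none, against backgrounds of 6.64% of all genes more positive, 7.24% more negative and 13.9% called in either direction. The difference was 2.62 ± 0.26, adjusted p = 0.0026 for ANKRD1 and 1.64 ± 0.22, adjusted p = 0.0064 for CCN1, each of which rose in R and did not pass in P. AMOTL2 (1.202 ± 0.27, adjusted p = 0.031) and LATS2 (1.12 ± 0.27, adjusted p = 0.038) also passed. Of their effects within a line AMOTL2 in R_DT alone had passed, with AMOTL2 at -0.26 ± 0.19, adjusted p = 0.36 in P_DT, where its libraries overlapped, and LATS2 at -0.47 in P_DT and 0.65 in R_DT. CCN2 rose in both lines, and its difference did not pass (-0.15 ± 0.18, adjusted p = 0.61, interval -0.57 to 0.27). WWTR1 (-0.77 ± 0.28, adjusted p = 0.12) and TEAD1 (0.60 ± 0.23, adjusted p = 0.13) did not pass, nor did F3 (0.22), YAP1 (-0.44) or TEAD4 (-0.71). CCN1 and ANKRD1 passed whichever of the 8 libraries was left out. AMOTL2 and LATS2 lost the call without P_DT replicate 1 (adjusted p = 0.11 and 0.13) or replicate 2 (0.10 and 0.10). The same happened without R_DMSO replicate 1 (0.093 and 0.081) or replicate 2 (0.10 and 0.12), and without R_DT replicate 1 (0.10 and 0.14) or replicate 2 (0.11 and 0.081). Both also missed the threshold when every gene above 0 FPKM was tested (0.059 and 0.063). Without P_DMSO replicate 2, WWTR1 (-0.97), YAP1 (-0.66) and TEAD4 (-1.20) passed as more negative in R (adjusted p = 0.034, 0.028 and 0.015).

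The lines differed already under vehicle. Between R_DMSO and P_DMSO, F3, CCN1, CCN2 and ANKRD1 were higher in R and WWTR1 and AMOTL2 lower, 6 of 10 genes against a background of 27.6% of all genes called, 16.2% higher and 11.5% lower. F3, tissue factor, stood at 6.43 and 4.51 FPKM in P_DMSO and 45.9 and 46.6 in R_DMSO. That was the largest difference of the 10, with R libraries far above P libraries (2.89 ± 0.26, adjusted p = 0.00060). WWTR1 went the other way, from 135 and 179.5 FPKM to 44.4 and 37.1 (-1.92 ± 0.20, adjusted p = 0.0010), and AMOTL2 went from 37.5 and 55.2 to 20.9 and 19.8 (-1.12 ± 0.19, adjusted p = 0.0063). The libraries of the lines did not overlap for any of these 3 genes, nor for CCN1, CCN2 and ANKRD1, whose differences were smaller. They were 0.85 ± 0.15, adjusted p = 0.0082 for CCN1, 0.70 ± 0.12, adjusted p = 0.0079 for CCN2 and 0.91 ± 0.18, adjusted p = 0.012 for ANKRD1. YAP1 (0.43 ± 0.17, adjusted p = 0.10), TEAD4 (0.66), TEAD1 (0.23) and LATS2 (-0.59 ± 0.19, adjusted p = 0.059) did not pass. LATS2 passed as lower with quantile normalisation (-0.65, adjusted p = 0.042). In the 4 vehicle libraries alone, CCN1 (0.055), CCN2 (0.062) and ANKRD1 (0.070) missed the threshold. CCN1 also missed it without R_DMSO replicate 1 (adjusted p = 0.0528), and CCN2 (0.0550) and ANKRD1 (0.075) missed it without R_DMSO replicate 2. Without P_DMSO replicate 2, YAP1 (0.65, adjusted p = 0.010) and TEAD4 (1.15, 0.0053) passed as higher in R. The median over the 10 genes was 0.55, beside 0.10 for all genes. The control hairpin groups lie in 2 tables and were not tested against each other. There the means of CCN1 (105 and 69.1 FPKM), CCN2 (44.3 and 18.2) and ANKRD1 (8.39 and 6.86) were higher in P_shCtrl than in R_shCtrl, opposite to vehicle. F3 (10.2 and 66.8), WWTR1 (140 and 42.0) and AMOTL2 (60.9 and 40.0) kept the direction seen under vehicle. The mitochondrial share was 7.27% and 7.86% in P_DMSO and 10.2% and 12.4% in R_DMSO, and its part was not tested.

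Under both drugs the distance between the lines was given by R_DT against P_DT, which shares its libraries with the comparisons above. Here 5 genes were higher in R and WWTR1 was lower, against a background of 37.6% of all genes called, 18.6% higher and 19% lower. ANKRD1 stood at 1.15 and 1.18 FPKM in P_DT and 25.8 and 22.6 in R_DT (3.53 ± 0.18, adjusted p = 4.4e-05). F3 stood at 2.54 and 4.81 and 37.1 and 38.8 FPKM (3.10 ± 0.26, adjusted p = 0.00028), and CCN1 at 47.2 and 53.4 and 284 and 287 (2.49 ± 0.15, adjusted p = 8.1e-05). In all 3 the 2 lines stood apart. WWTR1 was lower in R, at 297 and 289.7 FPKM in P_DT and 51.6 and 38.9 in R_DT (-2.68 ± 0.20, adjusted p = 0.00017). TEAD1 (0.83 ± 0.16, adjusted p = 0.0081) and CCN2 (0.55 ± 0.12, adjusted p = 0.014) were higher by less. TEAD1 lost the call without P_DT replicate 2 (adjusted p = 0.0536) or R_DT replicate 1 (0.059). CCN2 lost it without P_DT replicate 1 (0.065), P_DT replicate 2 (0.089), R_DT replicate 1 (0.11) or R_DT replicate 2 (0.0549), and with quantile normalisation (0.067). LATS2 did not pass (0.53 ± 0.19, adjusted p = 0.066) except with quantile normalisation (0.65, adjusted p = 0.033). AMOTL2, lower in R under vehicle, stood at 37.2 and 38.4 FPKM in P_DT and 39.3 and 40.6 in R_DT and did not pass (0.08 ± 0.19, interval -0.37 to 0.53). YAP1 (-0.01, interval -0.41 to 0.39) and TEAD4 (-0.05) did not pass either.

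**Figure D3:**
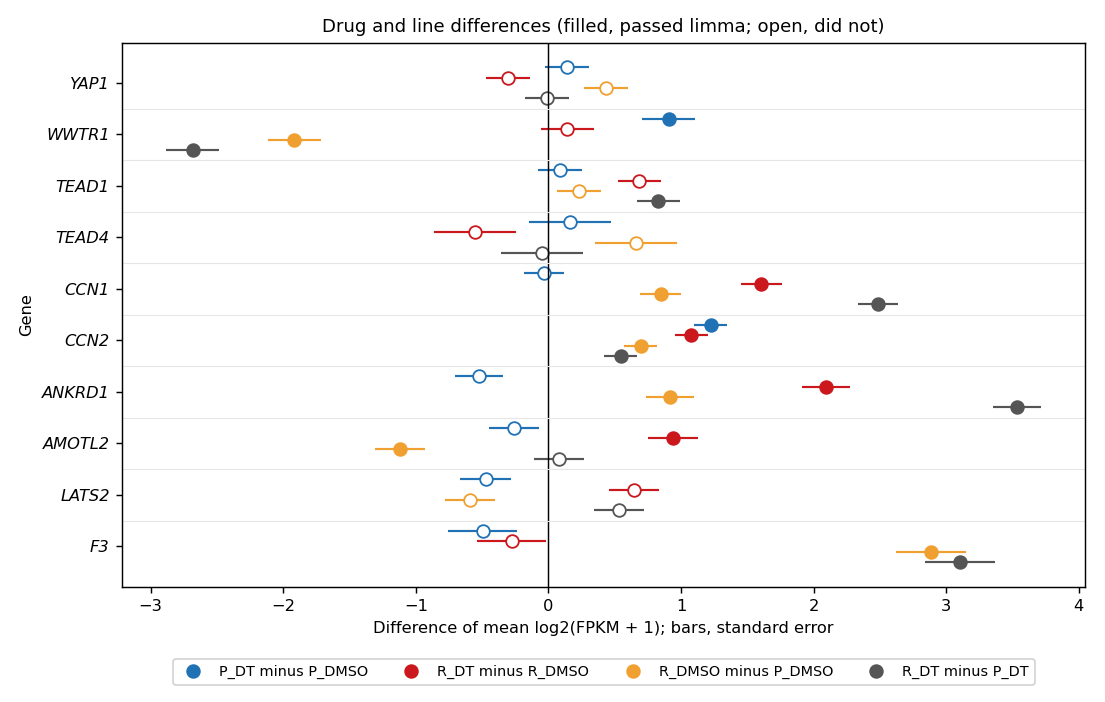
Differences of mean log2(FPKM + 1) for the 10 genes in 4 comparisons of the drug table, with standard errors as bars and filled points for genes that passed limma. CCN2 lies above 0 in all 4 comparisons, CCN1 and ANKRD1 have filled points above 0 in the 3 comparisons that involve R, and WWTR1 reaches -1.92 and -2.68 between the lines.

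Other genes of the pathway were read from 2 lists of 16 genes, one of Hippo kinases, scaffolds, further TEAD factors and their VGLL cofactors, and one of further YAP and TAZ targets. In P_DT against P_DMSO, 2 of the 16 pathway genes rose and 2 fell (median 0.20, all genes 0.11), and in R_DT against R_DMSO 0 of 16 passed limma, with VGLL4 the 1 gene at an unadjusted p under 0.05. Of all genes 22.5% were called in P_DT and 6.48% in R_DT, so 4 of 16 in P_DT is a share near the background. VGLL4, which competes with YAP1 for TEAD factors, stood at 24.8 and 27.1 FPKM in P_DMSO and 96.7 and 80.9 in P_DT (1.73 ± 0.16, adjusted p = 0.00090). Its effect was smaller in R (-1.22 ± 0.22, adjusted p = 0.017 for the difference between the lines), a call lost without P_DT, R_DMSO or R_DT replicate 1 or 2 (adjusted p of 0.0502 to 0.081). The Hippo kinase STK3 (-0.64 ± 0.17, adjusted p = 0.036) and its scaffold SAV1 (-0.78 ± 0.21, adjusted p = 0.038) fell in P_DT. Both calls were lost without P_DMSO replicate 1, P_DT replicate 1 or P_DT replicate 2, with adjusted p of 0.086 to 0.15 for STK3 and adjusted p of 0.097 to 0.17 for SAV1. Both also missed the threshold when every gene above 0 FPKM was tested (0.063 and 0.069) and in the 4 P libraries alone (0.10 and 0.076). Between the lines under vehicle, WWC1, the scaffold KIBRA, stood at 2.55 and 5.31 FPKM in P_DMSO and 26.0 and 28.2 in R_DMSO (2.57 ± 0.30, adjusted p = 0.0015), one of 3 pathway genes higher and 2 lower. The TEAD cofactor VGLL3 (1.43 ± 0.26, adjusted p = 0.0083) and TEAD2 (1.18 ± 0.26, adjusted p = 0.017) were also higher in R_DMSO. VGLL3 lost its call without R_DMSO replicate 1 (adjusted p = 0.0533), and TEAD2 lost it without R_DMSO replicate 1 (0.085) or 2 (0.080) and in the vehicle libraries alone (0.071). Under both drugs WWC1 (3.30 ± 0.30, adjusted p = 0.00037) and SAV1 (1.60 ± 0.21, adjusted p = 0.0015) were higher in R and VGLL4 lower (-1.67 ± 0.16, adjusted p = 0.00043), among 3 higher and 3 lower. Of all genes 27.6% were called between the lines under vehicle and 37.6% under drugs. The counts of the 16 pathway genes between the lines are thus shares near the background.

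The further targets moved apart in the lines as well. In P_DT 3 of 16 rose and 6 fell, in R_DT 4 rose and 1 fell, and the drug effect was more positive in R for 8 and more negative for 1 (median difference 0.73, all genes -0.16). Over all genes 12.8% rose and 9.67% fell in P_DT, 3.65% rose and 2.83% fell in R_DT, and the effect was more positive in R for 6.64% and more negative for 7.24%. IGFBP3, a secreted binding protein of insulin-like growth factors, stood at 96.7 and 106 FPKM in P_DMSO and 17.9 and 18.3 in P_DT, but at 3.67 and 2.93 in R_DMSO and 24.2 and 23.9 in R_DT. It fell in P (-2.42 ± 0.14, adjusted p = 0.00020) and rose in R (2.55 ± 0.14, adjusted p = 0.00056), a difference of 4.97 ± 0.20, adjusted p = 0.00028. GADD45A, a stress-induced growth arrest protein, stood at 105 and 132 FPKM in P_DMSO, 15.3 and 20.8 in P_DT, 52.7 and 47.3 in R_DMSO and 73.8 and 74.6 in R_DT. It fell in P (-2.65 ± 0.18, adjusted p = 0.00034), and its effect differed between the lines by 3.22 ± 0.26, adjusted p = 0.0013. NT5E, the cell surface enzyme CD73 that makes adenosine, went from 124 and 106 FPKM in P_DMSO to 1.57 and 1.73 in P_DT (-5.45 ± 0.18, adjusted p = 5.3e-05). It was lower with drug in R too, at 19.0 to 21.5 FPKM in R_DMSO and 8.66 to 11.4 in R_DT. The fall was smaller in R, and the drug effects differed between the lines by 4.496 ± 0.25, adjusted p = 0.00064. TGFB2, a secreted ligand of the TGF-beta family, went from 2.05 and 1.97 FPKM in R_DMSO to 27.4 and 23.0 in R_DT (3.11 ± 0.20, adjusted p = 0.00098). CRIM1, a membrane protein that binds BMP ligands, also rose in R (0.70 ± 0.11, adjusted p = 0.020), a call lost without R_DMSO or R_DT replicate 1 or 2 (adjusted p of 0.13 to 0.16). Between the lines, 7 of 16 were higher and 4 lower in R_DMSO, and 11 were higher and 0 lower in R_DT (median 0.68, all genes -0.05). All genes called between the lines were 27.6% under vehicle and 37.6% under drugs. Under vehicle IGFBP3 (-4.58 ± 0.14, adjusted p = 1.7e-05) and NT5E (-2.45 ± 0.18, adjusted p = 0.00027) were lower in R and the secreted protein gene CCDC80 higher (1.64 ± 0.20, adjusted p = 0.0017). Under drugs TGFB2 (3.06 ± 0.20, adjusted p = 0.00011), the kinase NUAK2 (2.48 ± 0.19, adjusted p = 0.00018) and NT5E (2.05 ± 0.18, adjusted p = 0.00033) were higher in R. The lists were put together with earlier results of these data known.

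The hairpin against LSD1 was then compared with the control hairpin in each line. In P it lowered ANKRD1 and raised none of the 10 genes, against backgrounds of 1.22% of all genes lower, 2.2% higher and 3.42% called in either direction. ANKRD1 stood at 9.10 and 7.68 FPKM in P_shCtrl and 2.84 and 3.03 in P_shLSD1. Both hairpin libraries lay below both controls (-1.25 ± 0.21, adjusted p = 0.045), but limma lost the call without P_shCtrl replicate 1 (adjusted p = 0.074), P_shLSD1 replicate 1 (0.10) or P_shLSD1 replicate 2 (0.080), and when every gene above 0 FPKM was tested (0.12). CCN1 stood at 115 and 95.5 FPKM in P_shCtrl and 58.4 and 64.4 in P_shLSD1, and TEAD4 at 42.9 and 43.8 and 28.97 and 23.8. Their libraries did not overlap, but neither CCN1 (-0.76 ± 0.17, adjusted p = 0.076) nor TEAD4 (-0.70 ± 0.16, adjusted p = 0.077) passed, and CCN1 passed with quantile normalisation (-0.67, adjusted p = 0.037). F3 was apart in the other direction, at 11.9 and 8.41 FPKM in P_shCtrl and 20.8 and 22.2 in P_shLSD1 (1.03 ± 0.21, adjusted p = 0.064). It passed without P_shCtrl replicate 1 (1.26, adjusted p = 0.018). CCN2 went from 46.0 and 42.5 to 52.3 and 61.6 FPKM without passing (0.35 ± 0.16, adjusted p = 0.25), and AMOTL2 from 59.1 and 62.8 to 53.0 and 44.4 (-0.32 ± 0.16, adjusted p = 0.29). WWTR1 (0.02), YAP1 (0.29), TEAD1 (0.18) and LATS2 (-0.01) had overlapping libraries or intervals across 0. Several marker sums were higher in P_shLSD1 than in P_shCtrl. The fibroblast sum is given above, the melanocytic sum was 205 to 218 FPKM against 106 to 114 in the controls and the leukocyte sum 8.13 to 10.6 against 2.201 to 2.38, with CD3E listed at 0 in both groups. The keratinocyte sums, 67.0 to 95.9 and 95.3 to 139 FPKM, overlapped, with KRT14 at 6.01 and 3.98 FPKM in P_shCtrl and 14.4 and 19.3 in P_shLSD1. Mitochondrial transcripts made up 8.24% and 7.65% of summed FPKM in P_shCtrl and 13.3% and 11.4% in P_shLSD1. The part of all these in the results was not tested.

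In R the LSD1 hairpin, whose sequence the labels do not give for either line, raised 5 of the 6 targets and lowered none of the 10 genes. The backgrounds were 9.42% of all genes higher, 12.4% lower and 21.8% called in either direction. ANKRD1 stood at 6.21 and 7.51 FPKM in R_shCtrl and 51.2 and 45.1 in R_shLSD1. CCN1 stood at 68.9 and 69.2 FPKM in R_shCtrl and 217 and 212 in R_shLSD1, and F3 at 64.8 and 68.8 and 178 and 187. Replicates lay close together and the groups far apart, with changes of 2.65 ± 0.14, adjusted p = 0.0013 for ANKRD1, 1.62 ± 0.06, adjusted p = 0.00094 for CCN1 and 1.44 ± 0.07, adjusted p = 0.0011 for F3. CCN2 went from 18.03 and 18.4 FPKM to 52.2 and 48.1 (1.41 ± 0.09, adjusted p = 0.0021). AMOTL2 rose by the least of the 5, from 40.8 and 39.1 to 65.3 and 60.0 FPKM (0.64 ± 0.08, adjusted p = 0.0086). All 5 also passed whichever of the 4 libraries was left out, although the count over all genes then fell from 3118 to between 966 and 1439. LATS2, the remaining target, stood at 7.36 and 9.14 and 8.06 and 9.68 FPKM, with overlapping libraries (0.10 ± 0.18, interval -0.35 to 0.54). The coactivators and TEAD factors did not pass, with WWTR1 at -0.22 ± 0.10, adjusted p = 0.19, TEAD4 at -0.23, TEAD1 at -0.11 and YAP1 at 0.06 (interval -0.15 to 0.26). The median change was 0.37, beside -0.05 for all genes. Fibroblast and melanocytic marker sums in R_shLSD1 were 32.0 to 40.2 and 37.9 to 41.1 FPKM, against 23.4 to 38.4 and 24.1 to 28.1 in R_shCtrl, and their part was not tested. The mitochondrial share was 13.0% and 13.9% in R_shCtrl and 15.5% and 16.8% in R_shLSD1, and its part was not tested either.

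The effect of the LSD1 hairpin differed between the lines for 4 of the 10 genes, each more positive in R, against backgrounds of 0.641% of all genes more positive, 1.24% more negative and 1.88% called in either direction. The difference was 3.90 ± 0.23, adjusted p = 0.0024 for ANKRD1, which fell in P and rose in R. It was 2.38 ± 0.17, adjusted p = 0.0031 for CCN1, 1.06 ± 0.17, adjusted p = 0.033 for CCN2 and 0.96 ± 0.17, adjusted p = 0.044 for AMOTL2. F3 passed in R and not in P, and the difference of its effects did not pass (0.41 ± 0.22, adjusted p = 0.40, interval -0.11 to 0.93). TEAD4 (0.47 ± 0.20, adjusted p = 0.27), WWTR1 (-0.24), YAP1 (-0.24), TEAD1 (-0.28) and LATS2 (0.11) did not pass. This test joins 2 tables that the authors normalised separately, and only the difference of the within-table differences was used. ANKRD1 and CCN1 passed whichever of the 8 libraries was left out. CCN2 lost the call whichever of them was left out, with adjusted p of 0.075 and 0.058 without P_shCtrl replicate 1 or 2, 0.094 and 0.060 without P_shLSD1 replicate 1 or 2, 0.13 and 0.13 without R_shCtrl replicate 1 or 2, and 0.14 and 0.12 without R_shLSD1 replicate 1 or 2. AMOTL2 did so too, at 0.076, 0.086, 0.071, 0.10, 0.15, 0.17, 0.17 and 0.14 in the same order. Both missed the threshold when every gene above 0 FPKM was tested (0.081 and 0.091), and AMOTL2 also with a pseudocount of 0.1 (0.0510) and with quantile normalisation (0.059). In a limma fit with the replicate number as a block, none of the 4 passed. The adjusted p was then 0.083 for ANKRD1, 0.12 for CCN1, 0.25 for CCN2 and 0.26 for AMOTL2, although no label says that the numbers pair libraries.

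**Figure D4:**
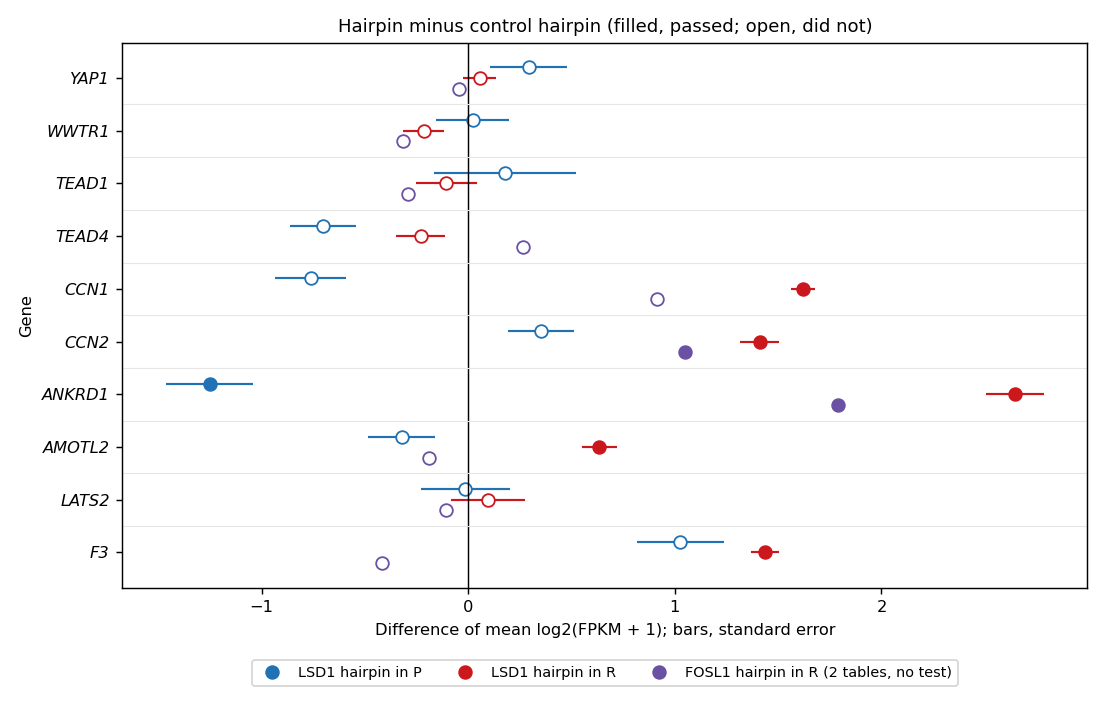
Differences of mean log2(FPKM + 1) between a hairpin and the control hairpin for the 10 genes, with standard errors as bars for the tested comparisons and filled points for genes called; the FOSL1 hairpin spans 2 tables and was not tested. ANKRD1 lies at -1.25 with the LSD1 hairpin in P, at 2.65 in R and at 1.79 with the FOSL1 hairpin in R.

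The FOSL1 hairpin in R was described against R_shCtrl, the same control libraries as for the LSD1 hairpin, and without a test because the groups lie in 2 tables. A gene is counted here when its mean log2 difference is at least 1 and the libraries stand apart, which 2.57% of all genes met upwards, 3.3% downwards and 5.86% in either direction. ANKRD1 and CCN2 met it upwards and none of the 10 downwards. ANKRD1 stood at 25.8 and 26.4 FPKM in R_shFosL1, between 6.21 and 7.51 in R_shCtrl and 51.2 and 45.1 in R_shLSD1 (difference from control 1.79). CCN2 stood at 38.2 and 39.4 FPKM, also between its levels in R_shCtrl and R_shLSD1 (difference 1.05). CCN1, at 133 and 129 FPKM, lay above the control by less than the threshold (0.91). F3 went the other way from its level with the LSD1 hairpin, at 51.9 and 47.9 FPKM in R_shFosL1 against 64.8 and 68.8 in R_shCtrl, a difference of -0.42 with the libraries apart. AMOTL2 stood at 34.1 and 35.8 FPKM, below both control libraries (-0.19). TEAD4 (0.26) was higher and WWTR1 (-0.31) and TEAD1 (-0.29) were lower than the control in both libraries. YAP1 (-0.04) and LATS2 (-0.11) overlapped it. The median difference of the 10 genes was -0.08, beside 0.02 for all genes. The mitochondrial share was 8.17% and 8.24% in R_shFosL1, below the 13.0% and 13.9% of R_shCtrl, and its part in these values was not tested. Besides the hairpin, FOSL1 itself varied between groups, at 144 and 142 FPKM in R_shLSD1.

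Among the 16 other pathway genes, 1 rose and 0 fell in P_shLSD1, and 4 rose and 1 fell in R_shLSD1 (median 0.19, all genes -0.05). Over all genes the called share was 3.42% in P_shLSD1 (2.2% higher) and 21.8% in R_shLSD1 (9.42% higher, 12.4% lower). VGLL4 stood at 16.8 and 18.7 FPKM in P_shCtrl and 38.3 and 36.2 in P_shLSD1 (1.03 ± 0.15, adjusted p = 0.036), a call lost without P_shLSD1 replicate 1 or 2 (adjusted p of 0.068 to 0.084). In R, VGLL3 (0.93 ± 0.16, adjusted p = 0.018) and the angiomotin AMOTL1 (0.63 ± 0.13, adjusted p = 0.025) rose and the kinase MAP4K4 fell (-0.59 ± 0.09, adjusted p = 0.013). VGLL3 lost the call without R_shCtrl replicate 1, R_shLSD1 replicate 1 or 2 (adjusted p of 0.056 to 0.077), AMOTL1 whichever of the 4 libraries was left out (adjusted p of 0.080 to 0.095), and MAP4K4 without R_shCtrl replicate 1 or 2 or R_shLSD1 replicate 1 (adjusted p of 0.0507 to 0.063). AMOTL1 also missed the threshold when every gene above 0 FPKM was tested (0.0550). Of the further targets, 2 of 15 tested rose and 0 fell in P_shLSD1, and 5 of 16 rose and 3 fell in R_shLSD1. IGFBP3 rose in both lines, from 48.4 and 48.4 to 132 and 145 FPKM in P (1.497 ± 0.15, adjusted p = 0.022) and from 3.33 and 2.80 to 10.4 and 11.0 in R (1.52 ± 0.17, adjusted p = 0.0056). NT5E rose in P from 20.5 and 23.8 to 76.3 and 75.9 FPKM (1.74 ± 0.15, adjusted p = 0.017), and its effect in R was more negative (-2.37 ± 0.16, adjusted p = 0.0031 for the difference). VGLL4, IGFBP3 and NT5E in P missed the threshold when every gene above 0 FPKM was tested (0.11, 0.079 and 0.073). RBMS3, an RNA-binding protein gene, rose in R (1.07 ± 0.17, adjusted p = 0.014), a call lost whichever of the 4 libraries was left out (adjusted p of 0.0532 to 0.060), and GADD45A fell (-0.55 ± 0.07, adjusted p = 0.0089), a call lost without R_shCtrl replicate 1 (adjusted p = 0.0522). Among the pathway genes, the LSD1 hairpin effect was more positive in R for WWC1 (1.13 ± 0.20, adjusted p = 0.043) and the Hippo activator NF2 (1.01 ± 0.19, adjusted p = 0.0460). Among the targets it was more positive in R for FJX1 (1.71 ± 0.23, adjusted p = 0.021). Over all genes the hairpin effect was more positive in R for 0.641% and more negative for 1.24%. WWC1 and NF2 lost the call whichever of the 8 libraries was left out (adjusted p of 0.061 to 0.17 and adjusted p of 0.091 to 0.17), and FJX1 without either library of P_shLSD1, R_shCtrl or R_shLSD1 (adjusted p of 0.0522 to 0.11). All 3 missed the threshold when every gene above 0 FPKM was tested (0.089, 0.090 and 0.061), and NF2 also with a pseudocount of 0.1 (0.0521). With the FOSL1 hairpin, 0 of 15 pathway genes and 1 of 16 further targets met the criterion. Over all genes 5.86% met it, so 1 of 16 is a share near the background. The gene was NT5E, at 4.72 and 5.97 FPKM against 29.4 and 29.3 in R_shCtrl (-2.26).

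The genes most like CCN1, CCN2 and ANKRD1 over the 8 drug libraries were sought among 10610 genes of at least 5 FPKM on average, by the root mean square difference of log2(FPKM + 1) after centring each gene on its mean. Nearest to CCN1 were MYH9, the heavy chain of nonmuscle myosin, at 0.126, CSRP1, an actin-associated LIM protein gene, at 0.14, and the adhesion scaffold NEDD9 at 0.196. Mean levels of MYH9 were 71.6 FPKM in P_DMSO, 73.2 in P_DT, 129 in R_DMSO and 389 in R_DT, and like CCN1 it was at its highest in R_DT and next in R_DMSO, while the 2 P groups stood close together for both genes. Nearest to CCN2 were CALD1, an actin-binding caldesmon, at 0.166, the lysosomal membrane protein gene LAMP2 at 0.178 and the peroxisomal reductase PECR at 0.191. CALD1 stood at 23.0 FPKM in P_DMSO, 45.6 in P_DT, 27.7 in R_DMSO and 73.4 in R_DT, higher with drug in both lines. Nearest to ANKRD1 were the adhesion molecule NCAM1 at 0.237, the collagen chain COL4A1 at 0.256 and the glutamate transporter SLC1A3 at 0.266. COL4A1 stood at 29.2 FPKM in P_DMSO, 14.7 in P_DT, 45.4 in R_DMSO and 212 in R_DT. The likeness is a description over 8 libraries of 4 groups, and it carries no test.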

How the data were processed

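The authors deposited 4 tables of FPKM, estimated per gene from paired-end RNA-seq. Per the submitters' processing notes, they used CASAVA 1.4, HISAT2 2.1.0 and Cufflinks 2.2.1 with the hg38 build. The labels describe a directional kit and an rRNA-depleted library without saying which samples used which, and the strand setting of the counting is not given in the sources used here. FPKM depends on the annotated length and on the makeup of the whole library, and holds no counts, so no count model was run. One table also has a p-value column that the authors deposited without naming its test, and it was not used. Every one of the 18 FPKM columns belongs to a labelled sample. GENCODE 29 gave coordinates and holds 58520 of the 60595 identifiers. One table has 4940 blank rows, 27 symbols stored as dates were restored by identifier, and 5 values with a failed status were left out, none of them of the 10 genes.

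Library totals were 556375 to 814364 FPKM. In 10 of 18 libraries low values moved in clear steps of whole fragments, which put the depth at 8.1 to 10.9 M fragments if fragments are 250 bases long. It is unknown in the other libraries.

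Values were taken as log2(FPKM + 1), which understates changes of genes near or below 1 FPKM, and a gene entered a fit if at least 2 of its libraries reached 1 FPKM. They were tested with limma 3.58.1 (eBayes with trend and robust fitting) in R 4.3.3, with Benjamini-Hochberg adjustment over all genes of the fit and a threshold of 0.05. The 8 drug libraries were fitted together (4 residual degrees of freedom), each LSD1 hairpin table alone (2), and the difference of hairpin effects over 8 libraries of 2 tables (4). Intervals are 95% intervals from these fits. The test was tried on simulated data of the same layout. Alternatives were a pseudocount of 0.1, every gene above 0 FPKM, quantile normalisation, a replicate block, each library left out, and the 2 groups alone. Python 3.11.15, numpy 2.4.6, pandas 2.3.3 and matplotlib 3.10.9 were also used.

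Named are all 10 members in each comparison, per list of other genes the up to 3 called genes with the smallest adjusted p, KDM1A, FOSL1 and DUSP6 as checks, and the 3 genes most like CCN1, CCN2 and ANKRD1. The members and lists were chosen with earlier results of these data known. Promoter sequences come from RefSeq (GRCh38.p14).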

Additional observations from a re-analysis of the deposited data

Results flagged for a closer look

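Several genes responded differently in the 2 lines by a test of the difference itself. For dabrafenib with trametinib, limma's difference of effects (R minus P, log2 scale) was 2.62 ± 0.26, adjusted p = 0.0026 for ANKRD1, 1.64 ± 0.22, adjusted p = 0.0064 for CCN1, 1.202 ± 0.27, adjusted p = 0.031 for AMOTL2 and 1.12 ± 0.27, adjusted p = 0.038 for LATS2. It was 4.97 ± 0.20, adjusted p = 0.00028 for IGFBP3, 4.496 ± 0.25, adjusted p = 0.00064 for NT5E, 3.22 ± 0.26, adjusted p = 0.0013 for GADD45A and -1.22 ± 0.22, adjusted p = 0.017 for VGLL4. For the LSD1 hairpin, the difference was 3.90 ± 0.23, adjusted p = 0.0024 for ANKRD1, 2.38 ± 0.17, adjusted p = 0.0031 for CCN1, 1.06 ± 0.17, adjusted p = 0.033 for CCN2 and 0.96 ± 0.17, adjusted p = 0.044 for AMOTL2. It was -2.37 ± 0.16, adjusted p = 0.0031 for NT5E, 1.71 ± 0.23, adjusted p = 0.021 for FJX1, 1.13 ± 0.20, adjusted p = 0.043 for WWC1 and 1.01 ± 0.19, adjusted p = 0.0460 for NF2. ANKRD1, CCN1, AMOTL2 and NT5E appear in both sets, and the R line had the more positive effect in both for the first 3 of these genes. The share of all genes that passed both tests was not counted, and the lists were chosen with earlier results of these data known. Of the 8 differences for the drugs, AMOTL2, LATS2 and VGLL4 lost the call without some single libraries. Of the 8 for the hairpin, CCN2, AMOTL2, WWC1 and NF2 lost it whichever library was left out and FJX1 without 6 of the 8. The remaining 3, ANKRD1, CCN1 and NT5E, passed whichever library was left out and lost the call in a fit with the replicate number as a block.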

How the results depend on the processing

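The 34 member values that passed a test or criterion were recomputed under 318 alternatives: 246 kept the call, 72 lost it, none changed sign, and 17 values kept the call throughout.

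Counts of called members moved as follows. P_DT against P_DMSO (2) gave 4 with quantile normalisation, 1 in the 2 groups alone and 1 to 3 when a library was left out. R_DMSO against P_DMSO (6) gave 3 in the 2 groups alone. Leaving out a library gave 0 to 2 for R_DT against R_DMSO (4), 2 to 7 for the difference of drug effects (4), 0 to 1 for P_shLSD1 against P_shCtrl (1) and 2 each time for the difference of LSD1 hairpin effects (4). Testing every gene above 0 FPKM gave 2 for the difference of drug effects, 0 for P_shLSD1 (limma; 4 at an unadjusted p under 0.05) and 2 for the difference of hairpin effects, and quantile normalisation gave 2 for P_shLSD1.

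Counts over all genes moved too. In the 2 groups alone they were 1447 for P_DT (3861 over the 8 libraries), 2506 for R_DT (1114) and 2529 for R_DMSO against P_DMSO (4751). Every gene above 0 FPKM gave 0 for P_shLSD1 by limma (3969 at an unadjusted p under 0.05), 1609 for R_shLSD1 (3118) and 84 for the hairpin difference (303). Quantile normalisation gave 879 for P_shLSD1 (504), and a pseudocount of 0.1 gave 1368 for R_shFosL1 (834). Leaving out a library gave 1179 to 6055 for P_DT, 53 to 100 for R_DT, 2266 to 5754 for R_DMSO against P_DMSO, 3551 to 3668 for R_DT against P_DT (6462) and 646 to 4521 for the difference of drug effects (2385). For the hairpins it gave 271 to 950 in P, 966 to 1439 in R and 31 to 135 for their difference.

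The labels number the replicates, but nothing says that a number marks a shared culture or day, and replicate differences correlated between groups at -0.32 to 0.15. A fit with the replicate number as a block gave 2 members and 945 genes for P_shLSD1, 625 genes for R_DT, and 0 members (4 at an unadjusted p under 0.05 in limma) and 1 gene for the difference of LSD1 hairpin effects. In that block fit ANKRD1 had an adjusted p of 0.083, CCN1 0.12, CCN2 0.25, AMOTL2 0.26, NT5E 0.093, FJX1 0.18, WWC1 0.25 and NF2 0.26 for that difference. STK3 and SAV1 in P_DT had 0.065 and 0.065, AMOTL2 in R_DT 0.061 and LATS2 in the difference of drug effects 0.068, while F3 in P_shLSD1 passed (0.028).

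Some changes that were not called with all libraries in turned sign when a library was left out. In P_DT the log2 change spanned -0.0775 to 0.35 for YAP1, -0.10 to 0.27 for TEAD1 (-0.00827 with quantile normalisation), -0.33 to 0.65 for TEAD4, -0.12 to 0.0534 for CCN1 and -0.54 to 0.0105 for AMOTL2. It spanned -0.0587 to 0.34 for WWTR1 in R_DT, -0.0912 to 0.0702 for YAP1 and -0.18 to 0.0802 for TEAD4 in R_DT against P_DT, and -0.14 to 0.58 for F3 in the difference of drug effects. In P_shLSD1 it spanned -0.0748 to 0.12 for WWTR1, -0.30 to 0.65 for TEAD1 and -0.18 to 0.15 for LATS2, and in R_shLSD1 -0.29 to 0.0803 for TEAD1 and -0.0432 to 0.23 for LATS2. In the hairpin difference it spanned -0.76 to 0.19 for TEAD1 and -0.0583 to 0.28 for LATS2, and in R_shFosL1 -0.12 to 0.0330 for YAP1 and -0.25 to 0.0294 for LATS2. Depth limits ANKRD1, with an estimated 37 fragments in P_DMSO replicate 1. With 2 libraries a group, misses near the threshold do not show that levels were alike. Where leaving out a library left a single library in a group, that library was assumed to vary like the others.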
